A study of Mus musculus with 24 samples.

Results

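The genes described here encode the nuclear part of the mitochondrial respiratory chain, in mouse oligodendrocytes grown with or without ethanol. Members were all genes of the deposited count table whose symbol follows the naming of subunits of complex I (Nduf with a, b, c, s or v and a number), complex II (Sdha to Sdhd), complex III (Uqcr), complex IV (Cox4 to Cox8) or ATP synthase, also called complex V (Atp5), with a mean raw count of at least 10 over the wells. Of 85 genes with such symbols, 78 reached this mean, out of 55359 genes in the table, and 7 symbols marked as pseudogenes were left out. They comprised 36 genes of complex I, 4 of complex II, 8 of complex III, 14 of complex IV and 16 of complex V. Ndufs5 and Cox7b2 lay just inside the limit, with mean raw counts of 10.2 and 10.5, and Atp5g2 (7.92) and Cox8b (5.38) lay just outside. The other genes below it were Cox4i2, Cox6c2, Cox6a2, Cox8c and a further identifier of Atp5o, with mean raw counts from 0 to 2.5. The symbols leave out some subunits, such as Cyc1 and Ndufab1, and place Ndufa4 with complex I although it is now usually counted with complex IV. Placement was by symbol alone, so members such as Atp5s (Dmac2l in RefSeq) and Cox7a2l were counted without a check that they are subunits.

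The respiratory chain sits in the inner mitochondrial membrane. Complexes I and II pass electrons from NADH and succinate to ubiquinone, complex III passes them to cytochrome c, and complex IV passes them to oxygen, while complexes I, III and IV pump protons whose return flow drives ATP synthase. Most subunits come from nuclear genes and are imported, and a small core of complexes I, III, IV and V is encoded by the mitochondrial genome. Oligodendrocytes, the glial cells that make myelin, are known for a high demand for energy and lipid precursors while they mature.

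Cells were taken from the cortex of C57BL/6J pups at postnatal days 5 to 7, with no genetic change, and immature oligodendrocytes were collected on magnetic beads through the surface antigen O4. All 4 groups had 3 days of differentiation driven mainly by the thyroid hormone triiodothyronine and then 3 more days in culture. Ethanol exposure in the treated groups lasted 3 days. In experiment 1, 6 wells received 30 mM ethanol and 6 served as controls at 0 mM. In experiment 2, 6 wells received 10 mM ethanol and 6 served as controls at 0 mM. The experiments are also the labels' batches, so dose and experiment cannot be told apart, and neither can ethanol and incubator, because control plates had an incubator of their own. The labels call the wells biological replicates and name no animal or litter, so p-values measure the spread between wells, which may be partly technical. Counts came from sequencing near the 3′ end of transcripts and are given as CPM, counts scaled to a common library size with edgeR's TMM factors, and were not divided by length.

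Totals lay between 1184609 and 1817028 counts per well. Markers fixed for 8 cell types and states were checked in the summed CPM. Mature oligodendrocyte markers (Mbp, Mag and 5 others) were present in every group, with means from 4677 to 6570 CPM, but astrocyte markers summed to means from 3945 to 5069 CPM, so the cultures held RNA of other glia. Microglial markers had a mean of 154.5 CPM in the experiment 1 controls and 1376 CPM in the experiment 2 controls. Well 1 of the 30 mM group stood apart in mature oligodendrocyte markers, at 10027 CPM against a group mean of 6570. In bulk wells, fewer cells of a type and less RNA per cell cannot be told apart.

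At 30 mM ethanol, most subunit genes were slightly lower than in their controls, and few differed beyond the spread between wells. Of 78 members tested, 64 had a lower estimate and 14 a higher one, where 45.98% of the 13235 genes tested had a lower one. The median log2 fold change of the members was -0.10, against 0.02 for all genes. The middle part of the members (between the quartiles) ran from -0.14 to -0.05. Members varied partly together from well to well. Within a group, the median log2 deviation of the members in a well had an SD of up to 0.0743. The members are therefore not separate observations, and no test was made on their median or on counts of direction. By edgeR's quasi-likelihood test with Benjamini-Hochberg adjustment over all genes, 5 members fell at adjusted p under 0.05 and 0 rose. That is 6.41% of the members, near the 6.65% of all genes tested that were called lower. Of all genes, 3.02% were called higher. At an unadjusted p under 0.05, 23 members were lower and 2 were higher, where 13% of all genes were lower and 10.5% higher. The groups of wells did not overlap for 2 members, both lower. Among all genes tested, 410 (3.1%) had such a gap with lower values and 133 with higher values.

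**Figure D1:**
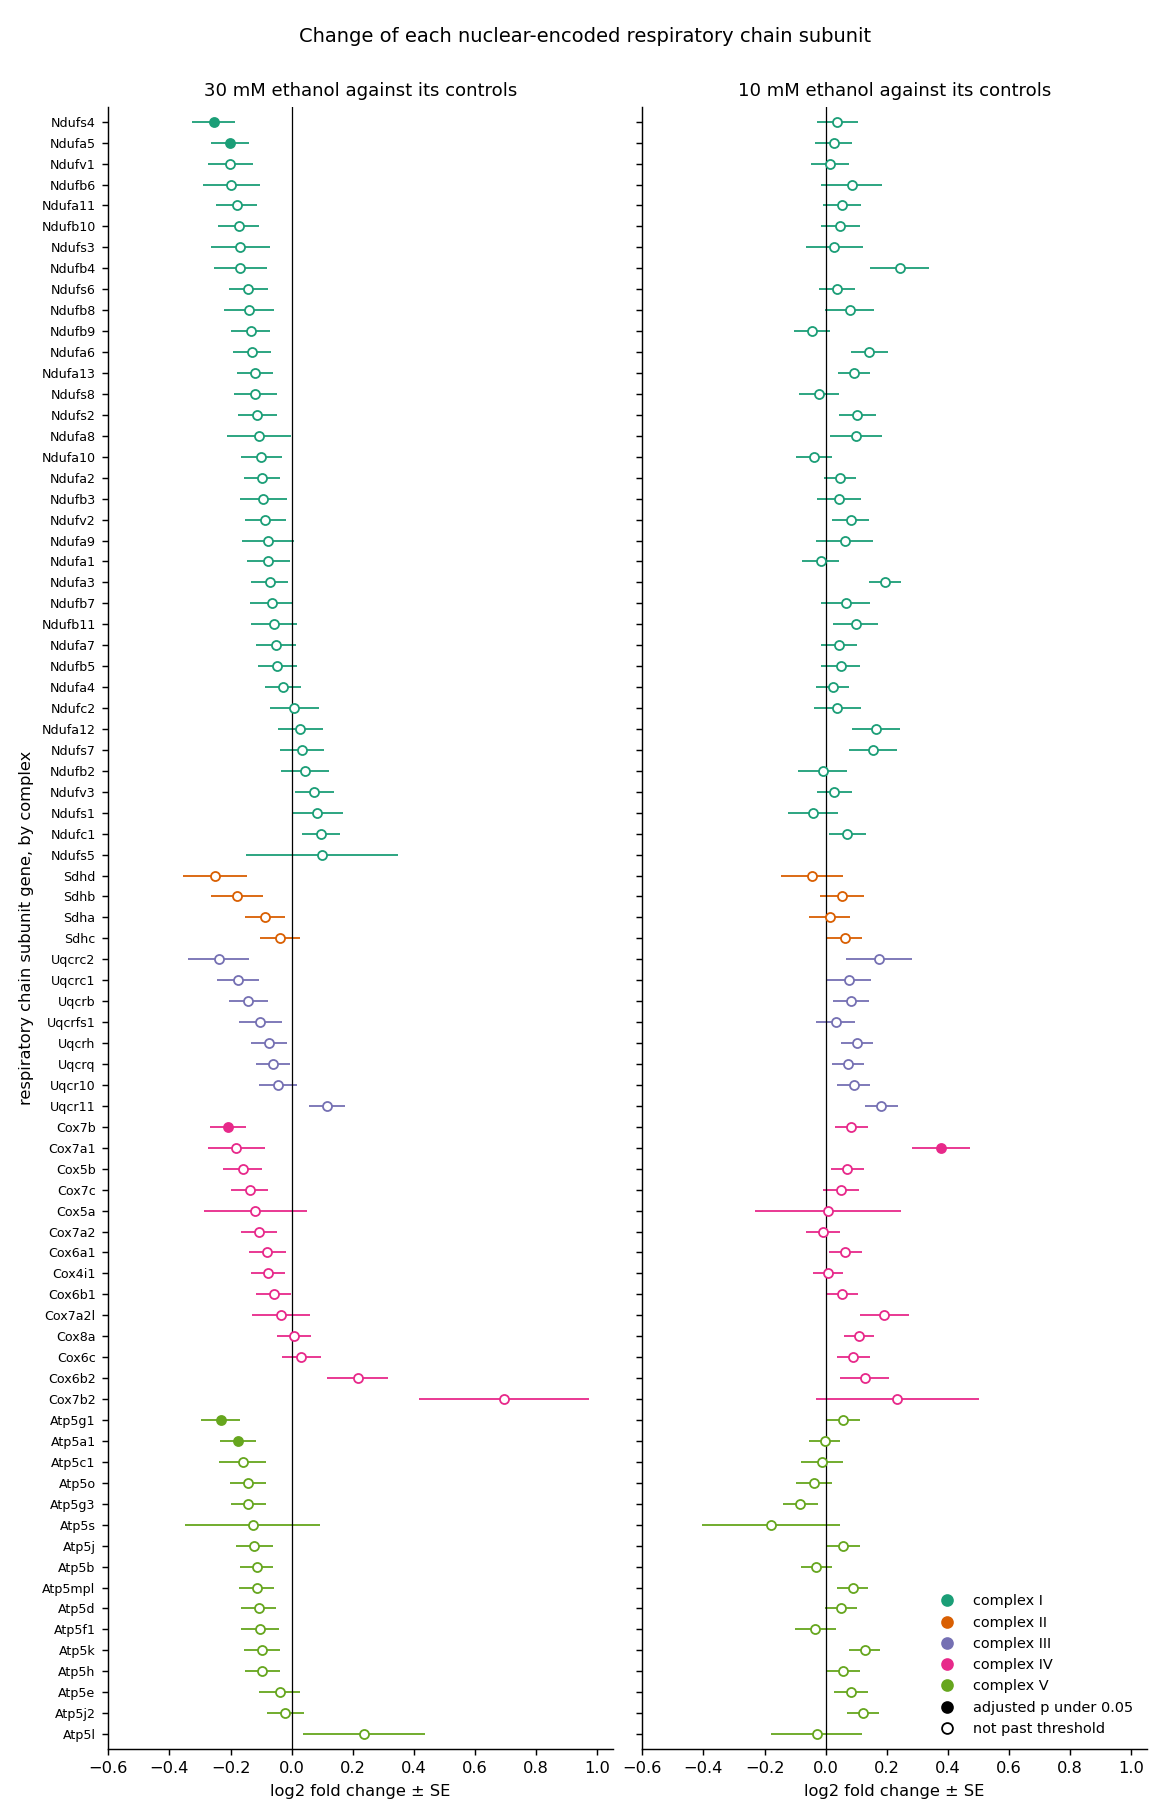
Log2 fold change with its standard error (horizontal axes) for each of the 78 subunit genes (rows, grouped and coloured by complex), at 30 mM on the left and at 10 mM on the right; filled points passed adjusted p under 0.05. At 30 mM most points lie left of 0 and 5 are filled, and at 10 mM most lie right of 0 and 1 is filled.

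The median was below 0 in each complex at 30 mM, and differences between complexes were not tested. The median log2 fold change was -0.09 for complex I (28 of 36 lower), -0.13 for complex II (4 of 4), -0.09 for complex III (7 of 8), -0.08 for complex IV (10 of 14) and -0.11 for complex V (15 of 16). Summed over the 78 genes, the treated wells held 29544 ± 1347 CPM (SD, n = 6) and the controls held 31534 ± 1617 CPM (SD, n = 6), so the treated sum was 93.7% of control. By complex, the sum at 30 mM was 94.0% of control for complex I, 92.5% for complex II, 96.0% for complex III, 94.7% for complex IV and 91.8% for complex V. The sums of the groups overlapped: treated wells ran from 28211 to 31476 CPM and controls from 28396 to 32908 CPM. Control well 6 had the lowest control sum, and the other 5 controls had at least 31426 CPM. Without that well the sum at 30 mM was 91.9% of control. No test was made on sums over members.

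**Figure D2:**
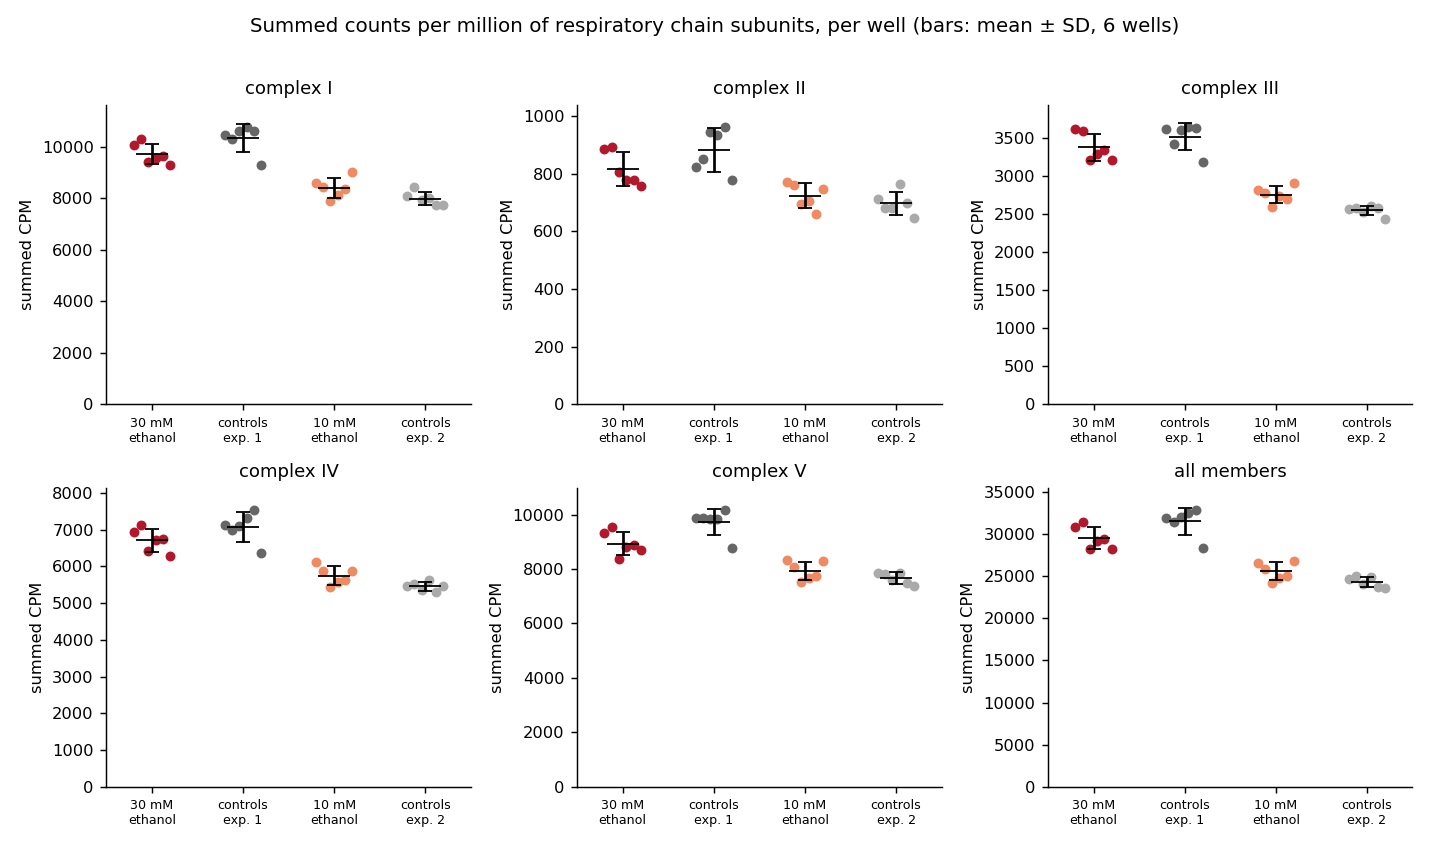
Summed CPM of the subunit genes of each complex and of all 78 members (vertical axes) in each of the 24 wells; bars are the mean and SD of 6 wells. Values at 30 mM lie slightly under their controls and values at 10 mM slightly above theirs, and the means of both groups of experiment 1 lie above those of both groups of experiment 2.

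In complex I, Ndufs4 and Ndufa5 fell at 30 mM. Ndufs4 encodes an accessory subunit of the arm that oxidises NADH, and its loss in mice is a model of Leigh syndrome. Ndufs4 had 178.3, 202 and 226 CPM (lowest, median, highest) in the 30 mM wells and 227.1, 243.1 and 259.9 CPM in the controls. Every 30 mM well lay below every control well, by a narrow gap. The log2 fold change of Ndufs4 was -0.26 (SE 0.07, adjusted p = 0.0127). Its call held in 9 of 10 other settings of the fit and in 10 of 12 fits that left out 1 well. Ndufa5, an accessory subunit of the arm that faces the matrix, had 292.8, 318.4 and 329.7 CPM at 30 mM and 329.9, 371.5 and 389.2 CPM in the controls. The highest treated well and the lowest control well almost touched. Its log2 fold change was -0.20 (SE 0.06, adjusted p = 0.0271). The call of Ndufa5 was less stable, and held in 8 of 10 other settings and in 5 of 12 fits that left out 1 well. Ndufa11 (-0.18, adjusted p = 0.0757), the flavin-binding core subunit Ndufv1 (-0.20, adjusted p = 0.0768) and Ndufb10 (-0.17, adjusted p = 0.0912) missed the threshold. The highest estimates in the complex were those of Ndufs5 (0.10, SE 0.25), Ndufc1 (0.10, SE 0.06) and the core iron-sulfur subunit Ndufs1 (0.08, SE 0.08), and none passed.

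Complexes II and III had no member past the threshold at 30 mM. In complex II, which also works in the citric acid cycle, the membrane anchor Sdhd had the lowest estimate. Sdhd had 50.95, 57.1 and 74.03 CPM at 30 mM and 60.13, 71.12 and 83.73 CPM in the controls, groups that overlapped widely (log2 fold change -0.25, SE 0.10, adjusted p = 0.123). Sdhc, the other anchor and the member of complex II with the highest CPM, had 287.7, 309.4 and 369 CPM at 30 mM against 281.7, 331.9 and 354.9 CPM (-0.04, adjusted p = 0.777). In complex III, the core protein Uqcrc2 had 46.2, 53.74 and 60.04 CPM at 30 mM and 53.01, 64.72 and 68.36 CPM in the controls. The groups overlapped, and its log2 fold change was -0.24 (SE 0.10, adjusted p = 0.128). The other core protein, Uqcrc1, had the smallest p of the complex, with 167, 188.2 and 197.2 CPM against 194.6, 211.5 and 227.9 CPM (-0.18, SE 0.07, adjusted p = 0.0975). Uqcrq, a small subunit with the highest CPM in the complex, had 715.5, 779.4 and 831.2 CPM at 30 mM and 764.3, 818 and 847.3 CPM in the controls (-0.06, adjusted p = 0.55). Uqcr11, another small subunit, was the 1 member of the complex with a higher estimate (0.12, SE 0.06, adjusted p = 0.214).

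In complex IV, Cox7b fell at 30 mM. It encodes a small subunit of cytochrome c oxidase. Cox7b had 495.3, 508.5 and 542.3 CPM at 30 mM and 528.5, 606.6 and 642.9 CPM in the controls, where 1 control well reached into the treated range. Its log2 fold change was -0.21 (SE 0.06, adjusted p = 0.0176). The call held in 9 of 10 other settings and in 10 of 12 fits that left out 1 well. Cox8a, the member with the highest CPM in the complex, was level, with 1106, 1171 and 1235 CPM against 1022, 1174 and 1291 CPM (0.01, SE 0.06, adjusted p = 0.957). The largest estimate, 0.69 for Cox7b2 (SE 0.28, adjusted p = 0.109), came from a gene with means of only 9.22 and 5.73 CPM. Cox7b2 and Cox6b2 are known mainly from testis, and Cox6b2 had a log2 fold change of 0.22 (SE 0.10, adjusted p = 0.174).

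In complex V, Atp5g1 and Atp5a1 fell at 30 mM. Atp5g1 is one of several genes for the c subunit, which forms the proton-conducting ring. Atp5g1 had 347.1, 388.8 and 418.1 CPM at 30 mM and 375.8, 473.6 and 480 CPM in the controls. The groups overlapped through control well 6 alone, since the other 5 controls had at least 469 CPM. Its log2 fold change was -0.23 (SE 0.06, adjusted p = 0.0125). The call held in 9 of 10 other settings and in 11 of 12 fits that left out 1 well. Atp5a1, the alpha subunit of the catalytic head, had 692.6, 776.2 and 853.5 CPM at 30 mM and 784.9, 886.1 and 931.5 CPM in the controls. The 2 ranges shared a stretch, and the log2 fold change was -0.18 (SE 0.06, adjusted p = 0.0461). The call of Atp5a1 was fragile, and held in 5 of 10 other settings and in 3 of 12 fits that left out 1 well. Atp5b, the catalytic beta subunit, had 1445, 1563 and 1650 CPM at 30 mM and 1546, 1703 and 1787 CPM in the controls, and did not pass (-0.12, SE 0.05, adjusted p = 0.192). Atp5g3, another gene for the c subunit, had a log2 fold change of -0.14 (SE 0.06, adjusted p = 0.116).

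Other quantities moved with the 30 mM group beside these genes. Mature oligodendrocyte markers rose (6 of 7 called, summed CPM from 5684 to 10027 against 4310 to 5162), as did 4 of 6 astrocyte markers (4611 to 5966 against 3295 to 4214 CPM). Mural and fibroblast markers fell (5 of 6 called, 330.2 to 388.2 against 652 to 953.6 CPM), and so did all 4 proliferation markers (406.6 to 534.4 against 572 to 690.1 CPM). Of all genes, 3.02% were called higher and 6.65% lower. Actin of smooth muscle, Acta2, was the leading mural marker, with 122.3 ± 37.7 CPM (SD, n = 6) against 369 ± 48.0 CPM (SD, n = 6). The share of counts on genes too low to be tested was 2.30% ± 0.332 (SD, n = 6) in the treated wells, while the controls had 1.99% ± 0.260 (SD, n = 6). Control well 6 had 2.47% and 30 mM wells 3 to 6 had 2.43% to 2.63%, and the other wells of experiment 1 had at most 2.01%. Control well 6 and 30 mM wells 3 to 6 also had the lowest totals of experiment 1 (1218861 to 1358062 counts, others from 1493383). The part of the markers in the result was not tested, and depth was examined only by refits with covariates. With the share of low genes as a covariate, 1 member (Cox7b) stayed past the threshold and the median was -0.05. With log2 total count as a covariate, 4 members passed, 57 of 78 had a lower estimate and the median was -0.07. Over all genes, these fits called 1028 and 1186, in place of 1280. The count of members past the threshold also turned on single wells. It was 0 without 30 mM well 3, 2 without control well 1, 3 without 30 mM well 4, 5 or 6 or control well 2, 4 or 5, and 8 without 30 mM well 1 or control well 6.

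At 10 mM the estimates lay mostly the other way, and 1 gene passed. Of 77 members tested (Ndufs5 fell under the filter on low counts), 61 had a higher and 16 a lower estimate. Their median log2 fold change was 0.06 against -0.0023 for all 13538 genes tested. The median log2 deviation of the members in a well had an SD of up to 0.0541 within a group. No test was made on the median or on these counts of direction. The 1 member called higher was Cox7a1, where 0.391% of all genes were called higher, and 0 members were called lower, where 0.266% of all genes were. At an unadjusted p under 0.05, 12 members were higher and 0 lower, where 5.37% of all genes were higher and 4.72% lower. The medians were 0.05 for complex I, 0.03 for complex II, 0.09 for complex III, 0.08 for complex IV and 0.02 for complex V. All 8 members of complex III had a higher estimate, but in complex V 8 of 16 did. With the share of low genes as a covariate the median was 0.03, with 22 members lower. The groups of wells did not overlap for 4 members, all higher (Ndufb4, Uqcr11, Atp5j2 and Atp5mpl). Among all genes tested, 72 (0.532%) had such a gap with higher values and 38 with lower values. Summed over the 78 members, the 10 mM wells held 25582 ± 1063 CPM (SD, n = 6) and their controls held 24348 ± 588.7 CPM (SD, n = 6), so the treated sum was 105% of control.

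Cox7a1 encodes the isoform of a small complex IV subunit that is best known from heart and skeletal muscle. It had 61.09, 80.76 and 85.37 CPM at 10 mM and 48.61, 59.81 and 71.52 CPM in the controls of experiment 2. The groups overlapped through treated well 3, at 61.09 CPM, and the other 5 treated wells had at least 73.99 CPM. Its log2 fold change was 0.38 (SE 0.09, adjusted p = 0.0325). Its log2 fold change stayed between 0.33 and 0.45 in the alternatives run, but the call held in only 6 of 10 other settings. Its adjusted p was, for example, 0.149 by DESeq2, 0.0826 in a single edgeR fit of all 24 wells and 0.147 with the share of low genes as a covariate. The call was also lost when 1 of 7 wells was left out (10 mM well 1, 2, 4 or 6, or control well 3, 4 or 5), which left 0 members called. Without 10 mM well 3 or control well 2, 2 were called. In experiment 1, Cox7a1 had 61.6, 76.09 and 80.23 CPM at 30 mM and 69.63, 85.11 and 95.29 CPM in the controls (-0.18, SE 0.09, adjusted p = 0.233).

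Near the threshold at 10 mM lay Ndufa3 and Uqcr11. Ndufa3, an accessory subunit of complex I, had 694.1, 811.6 and 837.6 CPM at 10 mM and 629.6, 675.9 and 766.5 CPM in the controls (log2 fold change 0.19, SE 0.05, adjusted p = 0.0616). It stayed short of the threshold in 7 of 10 other settings and 10 of 12 fits that left out 1 well, and passed in the rest. Uqcr11 had 483.3, 517.1 and 559.8 CPM at 10 mM and 417.9, 448.4 and 479.2 CPM in the controls, with no overlap (0.18, SE 0.05, adjusted p = 0.092). Ndufb4, an accessory subunit of the membrane arm, had 57.81, 61.61 and 65.71 CPM at 10 mM and 40.71, 52.43 and 56.77 CPM in the controls. These wells did not overlap either, and its log2 fold change was 0.24 (SE 0.10, adjusted p = 0.329). Of the markers, 3 of 7 mature oligodendrocyte genes rose at 10 mM (summed CPM from 5173 to 5375 against 4024 to 5260). Of the other markers, 1 of 6 microglial genes (Cx3cr1) and 1 of 5 neuronal genes (Tubb3) rose, and 1 of 5 mural and fibroblast genes (Dcn) fell. Of all genes, 0.391% were called higher and 0.266% lower. The part of these markers in the result was not tested.

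**Figure D3:**
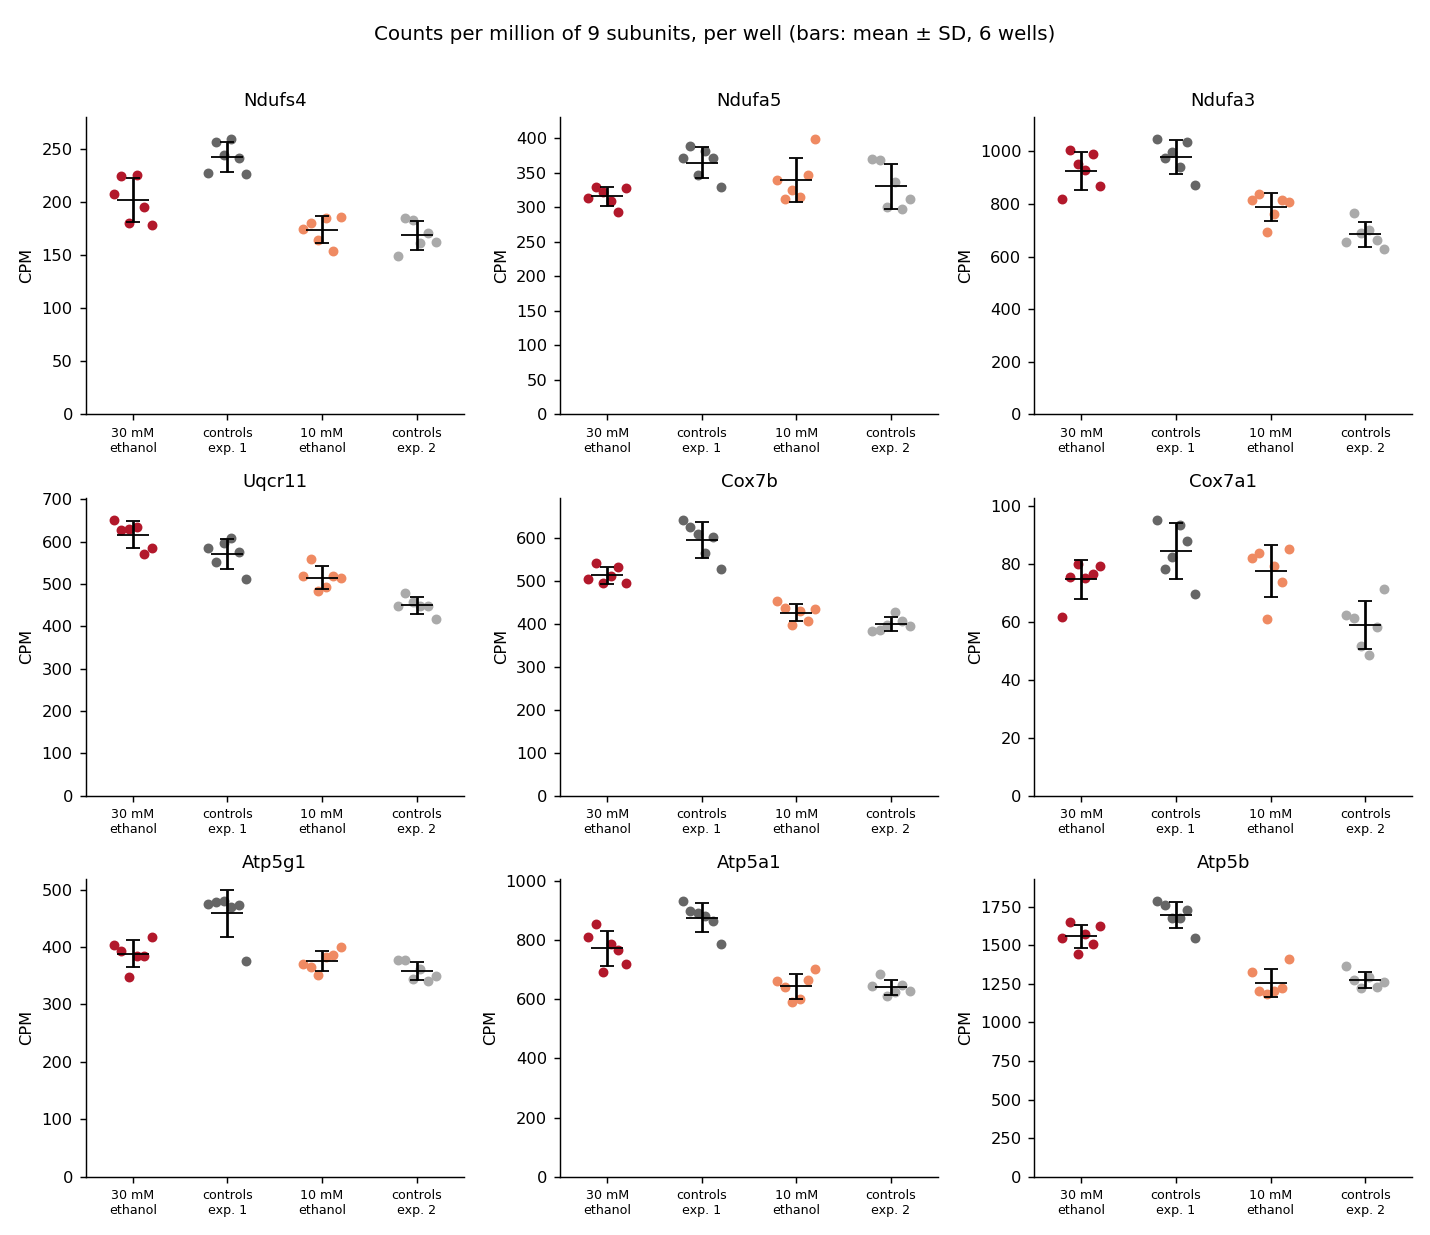
CPM (vertical axes, from 0) of 9 subunit genes in each well of the 4 groups; bars are the mean and SD of 6 wells. Ndufs4 and Ndufa5 at 30 mM lie below all their controls, Cox7a1 and Ndufa3 at 10 mM lie mostly above theirs, and control well 6 of experiment 1 (the last point of its group) is the lowest control for Atp5g1.

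The difference between the 2 changes was tested over all 24 wells. It was more negative at 30 mM for 70 of 78 members, with a median of -0.15 against 0.02 for all 14655 genes tested. No test was made on that count or median, and members varied partly together from well to well. By edgeR's quasi-likelihood test, 4 members passed, all more negative at 30 mM, which is 5.13% of the members beside 2.4% of all genes. Of all genes, 0.88% were called more positive, and 0 members were. Cox7a1 had the largest difference, -0.57 (SE 0.14, adjusted p = 0.00714). Cox7b differed by -0.30 (SE 0.08, adjusted p = 0.0237), Atp5g1 by -0.30 (SE 0.09, adjusted p = 0.0339) and Ndufa3 by -0.28 (SE 0.08, adjusted p = 0.0478). Cox7b had 398.1, 432.9 and 453.4 CPM at 10 mM and 383.9, 396.3 and 428.9 CPM in the controls of experiment 2, overlapping groups with a log2 fold change of 0.08 (SE 0.05, adjusted p = 0.643). Atp5g1 had 351.1, 376.3 and 400.2 CPM at 10 mM and 340.9, 355.7 and 377.7 CPM in those controls (0.06, adjusted p = 0.786). Ndufa3 had 818.7, 939.7 and 1005 CPM at 30 mM and 873.5, 987.6 and 1048 CPM in the controls of experiment 1 (-0.07, adjusted p = 0.495). Ndufs4 missed the threshold for the difference (-0.30, SE 0.10, adjusted p = 0.0734), as did Ndufa5 (-0.24, adjusted p = 0.139) and Atp5a1 (-0.18, adjusted p = 0.219). With the share of low genes as a covariate, 1 member passed and the median was -0.06. Leaving out 1 well gave from 2 members (without 30 mM well 3, for example) to 10 (without control well 6 of experiment 1), and the call of Ndufa3 held in 9 of 24 such fits.

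The untreated wells of the 2 experiments held different levels of most subunits. In the controls, 72 of 77 members tested (without Cox7b2, which fell under the filter) were higher in experiment 1, with a median log2 fold change of 0.41 against -0.01 for all 13479 genes. By edgeR's quasi-likelihood test, 63 members were called higher in experiment 1, or 81.8%, beside 21.3% of all genes, and 2 were called lower, beside 22.3% of all genes. The groups of wells did not overlap for 45 of 77 members, all higher in experiment 1. Among all genes tested, 1467 (10.9%) had such a gap with higher values in experiment 1 and 1083 with lower values. The summed CPM of the 78 genes in the controls of experiment 1 was 129.5% of that in experiment 2. By complex it was 129% for complex I, 126% for complex II, 138% for complex III, 130% for complex IV and 127% for complex V. Experiment, batch and culture cannot be told apart here, and this comparison shares its control wells with both ethanol comparisons.

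**Figure D4:**
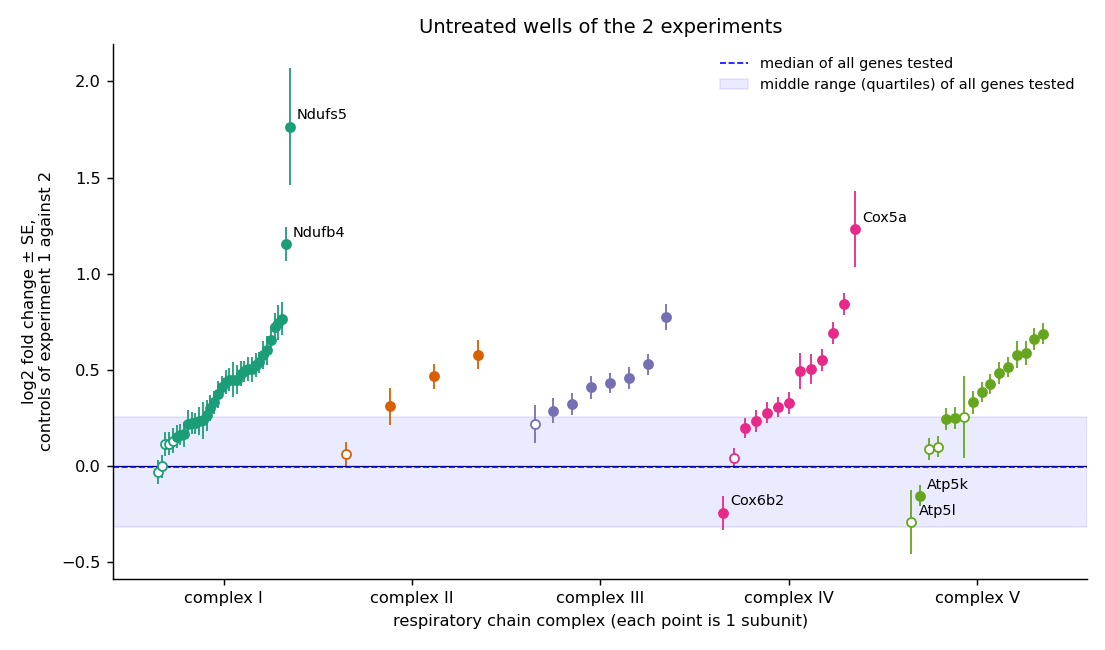
Log2 fold change with its standard error (vertical axis) of each subunit gene between the controls of experiment 1 and experiment 2, ordered within each complex; filled points passed adjusted p under 0.05, and the band spans the quartiles of all genes tested. In every complex most points lie above the band, and Cox6b2, Atp5k and Atp5l are the named exceptions below 0.

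The members were not all shifted alike between the controls. The 3 largest differences were those of Ndufs5 (1.77, SE 0.30), the complex IV subunit Cox5a (1.23, SE 0.20) and Ndufb4 (1.15, SE 0.09), with adjusted p of 1.22e-06, 2.5e-07 and 7.62e-20. Cox5a had 17.42, 21.73 and 29 CPM in experiment 1 and 4.7, 10.27 and 12.01 CPM in experiment 2, with no overlap. Ndufb4 had 107.9, 115.9 and 126.6 CPM in experiment 1, all above its highest value in experiment 2. Ndufs5 had 7.12 to 13.98 CPM in experiment 1 and 1.94 to 4.44 CPM in experiment 2, so that its values rest on few counts. In complex II the iron-sulfur subunit Sdhb differed most (0.58, adjusted p = 6.17e-10), in complex III Uqcrc1 (0.77, adjusted p = 9.74e-17) and in complex V Atp5o (0.69, adjusted p = 1.65e-18), which encodes the protein that joins the head to the stalk. Some members were near level: Cox4i1 differed by 0.04 (SE 0.05, adjusted p = 0.528), Sdhc by 0.06 (adjusted p = 0.421) and Ndufb9 by -0.0020 (adjusted p = 0.982). The 2 members called lower in experiment 1 were Cox6b2 (-0.24, SE 0.09, adjusted p = 0.0205) and Atp5k (-0.16, SE 0.05, adjusted p = 0.0154), which encodes the e subunit of ATP synthase. Microglial markers went the other way (6 of 6 lower in experiment 1), and so did 4 of 5 precursor markers and 2 of 5 neuronal markers. Of 7 mature oligodendrocyte markers 0 were called higher and 1 lower (median -0.08). Of 4 proliferation markers 2 were called higher in experiment 1, of 6 astrocyte markers 3 were higher and 2 lower, and of 6 mural and fibroblast markers 2 were higher and 2 lower. The share of counts on low genes was 1.99% against 2.57%. The part of the markers in the difference was not tested. With that share as a covariate, 36 members passed in place of 65 in either direction, and the median was 0.27. The same setting left 1842 of the 13479 genes called in place of 5880.

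The tissue isoforms of complex IV were compared next, to see which version of a subunit had transcripts in the cultures. Bulk counts give neither the cell type nor the protein. For subunit 4, Cox4i1 had means from 934.7 to 991.2 CPM over the 4 groups, and Cox4i2, the isoform known from lung, stayed below the count limit. For subunit 6a, Cox6a1 had means from 528.7 to 869 CPM and the muscle isoform Cox6a2 had a mean raw count of 0.917. For subunit 8, Cox8a had means from 930.1 to 1172 CPM and the muscle isoform Cox8b a mean raw count of 5.38. Subunits 6b and 7a were pairs with both members present, as was 7b, where Cox7b2 had means of at most 9.22 CPM. Cox6b1 had means from 613 to 714.8 CPM and Cox6b2 from 75.3 to 97.07 CPM, and Cox7a2 had means from 567.7 to 699.9 CPM and Cox7a1 from 58.99 to 84.51 CPM. These are counts near the 3′ end of different genes and set no exact ratio. At 10 mM, Cox7a2 did not follow Cox7a1 (-0.01, SE 0.05, adjusted p = 0.977), and the difference between the 2 genes was not tested.

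The stretch upstream of the transcription start is shown for 4 members, 3 that carry calls (Ndufs4 and Cox7b at 30 mM, Cox7a1 at 10 mM) and Cox6a1 as a member whose promoter holds letters of known respiratory-gene motifs. Each is the 250 bases before the RefSeq start on GRCm38.p6, read 5′ to 3′ on the gene's strand: Ndufs4 at chr13:114388095-114388344 (minus strand), Cox7b at chrX:106015450-106015699 (plus), Cox7a1 at chr7:30183921-30184170 (plus) and Cox6a1 at chr5:115348959-115349208 (minus). Capitals mark motif matches on either strand.
Ndufs4: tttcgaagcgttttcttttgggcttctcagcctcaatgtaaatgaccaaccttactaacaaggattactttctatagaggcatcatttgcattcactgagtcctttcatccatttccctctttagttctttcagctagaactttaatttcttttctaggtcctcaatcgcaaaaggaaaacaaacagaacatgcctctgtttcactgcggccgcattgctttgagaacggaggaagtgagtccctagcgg
Cox7b: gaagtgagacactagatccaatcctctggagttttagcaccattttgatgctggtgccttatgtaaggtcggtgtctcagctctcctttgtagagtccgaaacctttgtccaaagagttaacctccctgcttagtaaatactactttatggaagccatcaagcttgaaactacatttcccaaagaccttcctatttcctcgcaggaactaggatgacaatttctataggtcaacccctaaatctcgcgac
Cox7a1: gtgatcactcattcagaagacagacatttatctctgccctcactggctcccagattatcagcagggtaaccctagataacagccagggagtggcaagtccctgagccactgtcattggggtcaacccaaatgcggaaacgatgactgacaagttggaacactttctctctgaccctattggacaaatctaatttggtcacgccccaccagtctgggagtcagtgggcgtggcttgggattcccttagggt
Cox6a1: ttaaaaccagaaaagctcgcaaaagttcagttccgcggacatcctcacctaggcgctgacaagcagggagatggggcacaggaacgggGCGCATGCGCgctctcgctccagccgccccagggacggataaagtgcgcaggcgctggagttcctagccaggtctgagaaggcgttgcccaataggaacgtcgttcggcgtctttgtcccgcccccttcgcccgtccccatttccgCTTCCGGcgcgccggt
In Cox6a1 the first capitals are the letters of the NRF1 motif (GCATGCGC), which match on both strands and overlap, and the second are an ETS motif (CCGGAAG, on the opposite strand). The other 3 stretches hold no match to these or to the YY1 (AAGATGG) and ERR (AAGGTCA) letters, though Ndufs4 has YY1 letters in the 50 bases after its start, which are not printed. Promoter windows were found for 66 of 78 members (71 windows of 300 bases, from 250 before the start to 50 after it). NRF1 letters were in 12.7% of the members' windows and in 2.71% of all 32851 windows, ETS letters in 22.5% and 8.86%, YY1 letters in 15.5% and 6.34%, and ERR letters in 11.3% and 4.72%. Of the 9 members with NRF1 letters (Ndufa6, Ndufa8, Ndufa11, Sdhb, Uqcrc1, Uqcr11, Cox6a1, Atp5k and Atp5l), 0 passed at 30 mM or 10 mM, from which nothing is read given the low share of all genes called. A match is a description of the letters only.

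The subunits encoded by the mitochondrial genome did not go with the nuclear ones at 30 mM. Of 13 such genes 8 were tested, and 7 rose at 30 mM (median log2 fold change 0.34), where 3.02% of all genes were called higher. At 10 mM 0 passed (median -0.07). Between the controls, 8 of 8 were called higher in experiment 1 (median 0.61), beside 21.3% of all genes. That is the direction of most nuclear members in the same comparison. The smallest p-values at 30 mM were those of mt-Nd4 (0.37, SE 0.07, adjusted p = 0.000159), mt-Nd5 (0.38, SE 0.08, adjusted p = 0.000508) and mt-Nd3 (0.38, SE 0.08, adjusted p = 0.000508), all subunits of complex I. Mitochondrially encoded subunits took 1.31% to 1.79% of all counts at 30 mM and 1.13% to 1.38% in the controls of experiment 1, and the nuclear members took 2.82% to 2.97% and 2.92% to 3.2%. The ratio of the first to the second averaged 0.546 ± 0.069 (SD, n = 6) in the 30 mM wells against 0.413 ± 0.0379 (SD, n = 6) in their controls, with overlapping wells. In experiment 2 the 10 mM wells averaged 0.304 ± 0.033 (SD, n = 6) against 0.332 ± 0.0175 (SD, n = 6) for the controls. No test was made on these shares.

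**Figure D5:**
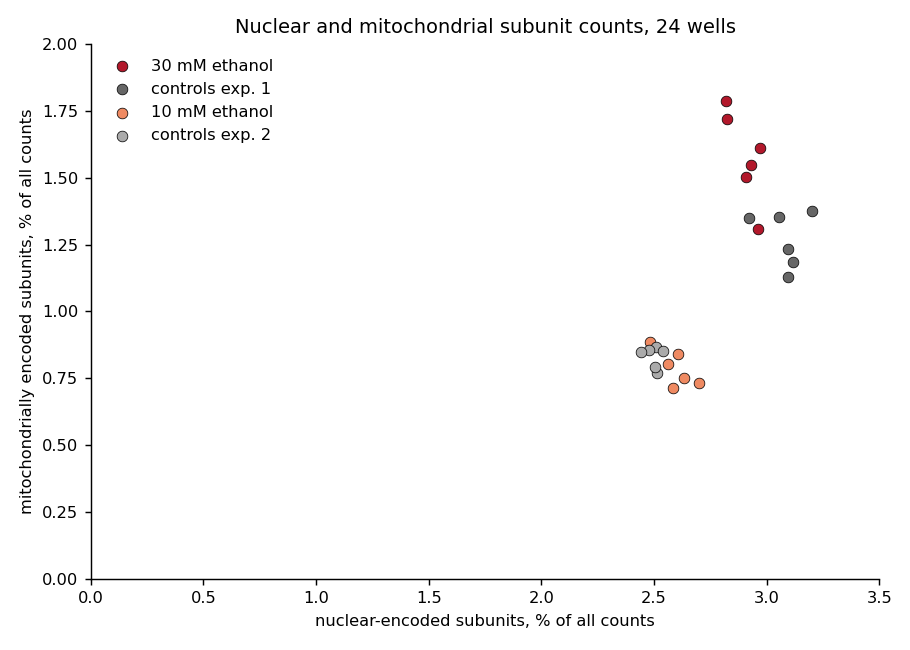
Share of all counts on the 78 nuclear-encoded subunits (horizontal axis) and on mitochondrially encoded subunits (vertical axis) in each of the 24 wells. The 30 mM wells, from 1.31% to 1.79% on the vertical axis, lie mostly above and to the left of their controls, and the wells of experiment 2 form a separate cloud with lower shares of both.

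Other genes of energy metabolism were read from lists chosen with earlier results of these data known. Of 18 citric acid cycle genes, which feed the chain with NADH and succinate, 17 had a lower estimate at 30 mM and 4 fell (median -0.12). Of all genes tested at 30 mM, 45.98% had a lower estimate, 6.65% were called lower and 3.02% higher. Idh2, the mitochondrial NADP-dependent isocitrate dehydrogenase, averaged 229.9 ± 33.1 CPM (SD, n = 6) in treated wells against 332 ± 22.2 CPM (SD, n = 6) in controls, a log2 fold change of -0.52 (SE 0.07, adjusted p = 1.53e-06). Idh3a, a subunit of the NAD-dependent isocitrate dehydrogenase (-0.24, adjusted p = 0.023), and Mdh2, the mitochondrial malate dehydrogenase (-0.23, adjusted p = 0.0233), also fell. Of 10 carriers and porins tested, 9 had a lower estimate and 2 fell, the outer membrane channel Vdac2 (-0.26, adjusted p = 0.0205) and the phosphate carrier Slc25a3 (-0.19, adjusted p = 0.0257). Of 9 genes of coenzyme Q synthesis tested, 1 fell, the hydroxylase Coq7 (-0.34, SE 0.10, adjusted p = 0.0259). None of the assembly factor genes of complexes I to V (15, 4, 6, 19 and 4 tested) and none of 16 regulators of mitochondrial biogenesis passed at 30 mM, and 0 of these genes passed at 10 mM. In the controls, 14 of 18 citric acid cycle genes were called higher in experiment 1 and 0 lower, with a median of 0.47. Of all genes, 21.3% were called higher and 22.3% lower.

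The counting rules are not given in the sources used here, so the 3′ ends of the members were searched for shared sequence in the GENCODE M21 transcripts. Of 78 members, 53 shared no run of 50 bases in their last 400 with another gene, among them Ndufs4, Ndufa5, Cox7b, Cox7a1 and Atp5a1. Shared runs covered 14.5% of that stretch for Atp5g1, 12.3% for Uqcr11, 45.3% for Atp5o and 47% for Ndufs5. They covered at least 50% for 4 members (Atp5l, Ndufs3, Atp5h and Cox7c), whose counts are uncertain. Exons of 26 members overlapped another gene, 4 of them on the same strand (Ndufb2, Ndufb8, Ndufb9 and Atp5o). Atp5o overlapped its further identifier on the same strand and D430001F17Rik and Gm15976 on the opposite strand, so its counts are uncertain as well. Ndufa3 overlapped Tfpt and Atp5a1 overlapped Haus1, both on the opposite strand. So did Cox5a with Gm26631, Uqcrc2 with Pdzd9, Cox4i1 with Emc8 and Ndufa11 with Vmac, among others. Since use of strand is not given, reads in the overlapping exons cannot be told apart. Whether these overlaps lie at the counted 3′ ends was not checked.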

How the data were processed

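The authors deposited raw counts per gene for 24 wells, as whole numbers. Reads were single-end 3′ tags of 100 bases, per the labels' protocols. Per the submitters' processing notes, cutadapt 1.18, STAR and the build GRCm39 were used. The counter, annotation, use of strand and removal of duplicates are not given in the sources used here. Symbols were matched by identifier for 52083 of 55359 genes.

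Counts were tested with edgeR 4.0.16 in R 4.3.3 (TMM, filterByExpr with a minimum count of 10, quasi-likelihood test, Benjamini-Hochberg adjustment over all genes tested, threshold 0.05). Each ethanol group was compared with the controls of its own experiment, the 2 control groups with each other, and the difference of the 2 changes over all 24 wells. Standard errors are the fold change divided by the root of F. The method was tested on simulated data. The members and lists were chosen with earlier results of these data known. Named were members past the threshold (up to 20 a comparison), in each complex the member with the highest mean CPM and those with the largest change in each comparison, the complex IV isoform pairs, and up to 3 genes a list, 28 members in all. Other genes were named after their values were seen (such as those near the threshold, without overlap or below the count limit). No 2 of the 60 pairs of wells within groups agreed within sampling noise (chi-square test of counts, largest p = 3.4e-11). Alternatives were other scalings and filters, DESeq2 1.42.0, limma 3.58.1 (voom), other thresholds, covariates, a replicate block and leaving out each well. Of the markers, 1 is not reported here and was left out of its list.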

Additional observations from a re-analysis of the deposited data

Results flagged for a closer look

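The CPM of 28 named members, their sums by complex and 3 shares of counts were searched for single wells far from the other 5 of their group, over 148 sets of 6 wells. Of these, 10 held such a well, where 7.4 are expected by chance, at about 1 in 20. Control well 6 of experiment 1 was low for Atp5g1 (375.8 CPM, others 469 to 480), for Cox7a2 (600.5 CPM, others 706.5 to 733.3), for the sums of complex I (9294 CPM) and complex V (8778 CPM), and for the sum of all members (28396 CPM). This well also had the lowest total of its group (1227777 counts, others from 1493383) and the highest share of counts on low genes (2.47%, others up to 2.01%). Well 1 of the 30 mM group, which also stood apart in mature oligodendrocyte markers, was low for Cox7a1 (61.6 CPM, others 75.32 to 80.23) and high for Ndufb4 (131.8 CPM, others up to 104.6). Well 5 at 10 mM was high for Atp5s (16.12 CPM) and low for Cox6a1 (487.1 CPM, others 555.3 to 590.9). Control well 2 of experiment 2 was high for Cox4i1 (1005 CPM, others up to 948.7). The change at 30 mM differed from that at 10 mM, by the edgeR test of the difference itself, for Cox7a1 (-0.57), Cox7b (-0.30), Atp5g1 (-0.30) and Ndufa3 (-0.28).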

How the results depend on the processing

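At 30 mM, 5 members passed. The number was 2 with no filter on low counts, 1 with the share of low genes as a covariate, 0 at an adjusted p under 0.01 and 9 under 0.1, and it ran from 0 to 8 when 1 well was left out. At a minimum count of 30, 5 passed, of which 4 were lower and 1, Uqcr11, was higher (adjusted p = 0.037). At 10 mM, 1 passed. The number was 2 with library totals alone and by limma voom, 0 by DESeq2, in a single fit of 24 wells, with the covariate and under 0.01, 3 under 0.1, and 0 to 2 with 1 well left out. For the difference, 4 passed, but 1 with the covariate and under 0.01, 8 under 0.1, and 2 to 10 with 1 well left out: 2 without 30 mM well 3, control well 1 or 3 of experiment 1, 10 mM well 6 or control well 3 or 5 of experiment 2, 7 without 10 mM well 3, 8 and 9 without 30 mM wells 1 and 2, and 10 without control well 6 of experiment 1. With the covariate the median difference was -0.0567 in place of -0.15, and between the controls 36 members passed in place of 65, with a median of 0.27 in place of 0.41. The causes were not tested. With the replicate number as a block (replicate block), 5, 1, 4 and 65 members passed; same-numbered wells did not deviate together (correlations from -0.169 to 0.235), so the numbers were not taken as pairs. For the 28 named members, 2584 refitted values were compared with 104 reported ones: 82 lost the threshold, 17 gained it, and 58 changed sign, all of them past the threshold in neither fit. Depth limits members such as Ndufs5 and Cox7b2, with about 10 counts per well.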
